A study of Mus musculus with 11 samples.

Results

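The genes described here encode the proteins of the mitochondrial ribosome. They were taken as every row of the deposited expression table with a gene symbol that begins with Mrpl or Mrps followed by a number. This gave 77 of the 24138 loci, 48 named for the large subunit (Mrpl) and 29 named for the small subunit (Mrps). Of these, 75 reached a mean of 1 FPKM over the libraries and were tested, 47 Mrpl and 28 Mrps genes. FPKM is a count of sequenced fragments scaled to transcript length and to the size of the library, so levels can be compared between genes of different length.

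RNA came from the cortex of mouse embryos at E14.5. There were 2 libraries of Chd8 conditional knockout embryos (cKO), labelled Chd8 c/c with Emx1-cre, and 3 control libraries. Control replicate 1 carried the label Chd8 c/+, and control replicates 2 and 3 the label Chd8 c/c, so every library carried at least 1 conditional Chd8 allele and the controls had no Cre in their labels. Emx1-cre is active in progenitors of the dorsal telencephalon and their descendants, so cells of other origin in the dissected cortex keep the gene. The labels do not say whether a library came from 1 embryo or a pool, and p-values measure only the spread between these libraries. 

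Mitochondria keep a small genome of their own, and its protein-coding genes all encode subunits of the respiratory chain and ATP synthase. A dedicated ribosome inside the organelle translates them. Its RNA comes from the mitochondrial genome, while all of its proteins are encoded in the nucleus, made in the cytosol and imported. Some of these proteins descend from bacterial ribosomal proteins and others are found only in mitochondria. Inherited defects of several of them cause mitochondrial disease in humans, often with damage to the brain.

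Chd8, which encodes the deleted chromatin remodeller, was at 19.3 and 15.1 FPKM in cKO replicates 1 and 2, against 31.5, 30.02 and 31.8 FPKM in control replicates 1 to 3. Both cKO libraries lay below every control. The log2 change of Chd8 was -0.83 (SE 0.15) in the limma test described below. Its unadjusted p in limma was 0.00172 and its adjusted p 0.575, so the deleted gene itself was not called. With so few libraries, a gene that is not called can still differ between the groups. Summed FPKM ranged from 418191 to 443749 in the cKO libraries and from 421500 to 484296 in the controls, with the highest sum in control replicate 2. Sequencing depth is unknown, since the table holds no counts. The 11 cortical markers used (among them Emx1, Pax6, Sox2 and Tbr1) were all above a mean of 1 FPKM. Their summed FPKM was 1041 and 988 in the cKO libraries, against 1058, 2024 and 1458 in control replicates 1 to 3. The summed FPKM of 12 microglial markers was 105 to 111 in the cKO and 34.8 to 52.2 in the controls, and that of 12 ventral telencephalic markers was 555 to 638 in the cKO and 280 to 468 in the controls. Both cKO libraries lay below every control for 7 of the 11 cortical markers, and above every control for 11 of the 12 microglial and 8 of the 12 ventral markers. None of these markers was at 0 in all libraries. The part of these differences in cell makeup in the values below was not tested, and in whole tissue fewer cells of a type and less RNA per cell cannot be told apart.

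No mitochondrial ribosomal protein gene passed the test of cKO against control. The test was limma on log2(FPKM + 1), adjusted by the Benjamini-Hochberg method over all 12672 tested loci. The smallest adjusted p among the 75 genes was 0.575, and 1 gene, Mrpl16, had an unadjusted p under 0.05. Over all tested loci, 6 passed at an adjusted p under 0.05 (0.0473%) and 7.45% had an unadjusted p under 0.05. The number of loci passing was 3 with the replicate number as a block, 25 or 37 when cKO replicate 1 or 2 was left out, and 15 or 14 when control replicate 1 or 2 was left out, and no mitochondrial ribosomal protein gene was among them. In the authors' deposited table, none of the 75 was marked significant, against 4.21% of the loci they tested, and the lowest q-value was 0.0765, for Mrps34.

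The median log2 change of the 75 genes, cKO minus control, was -0.07, beside -0.02 for all tested loci. Of the 75, 44 had a negative change and 31 a positive one, and over all tested loci 53.1% were negative. The changes ran from -0.73 for Mrps34 to 0.41 for Mrps14, and 57 of the 75 were smaller than 0.25 in size. Both cKO libraries lay below every control for 9 genes and above every control for 6, where all tested loci gave 15.6% and 13.4%. As shares of the 75 genes these were 12% and 8%, below the background in each direction. With upper-quartile scaling 6 lay below and 10 above, where all tested loci gave 12.5% and 16.7%. With equal summed FPKM 8 lay below and 9 above, but the shares over all tested loci were not counted for that scaling. In the reported fit the 9 below were Mrpl2, Mrpl11, Mrpl16, Mrpl33, Mrpl53, Mrpl54, Mrps5, Mrps34 and Mrps35. The 6 above were Mrpl17, Mrpl41, Mrpl50, Mrpl51, Mrps14 and Mrps22. The count of negative changes depended on the setting. With upper-quartile scaling, 7 of the 24 genes under a mean of 20 FPKM and 31 of the 51 others were negative. The median of the 75 was then -0.01, beside 0.03 for all tested loci. Without control replicate 2 the negative changes were 10 and 28, and without control replicate 1 they were 10 and 44.

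**Figure D1:**
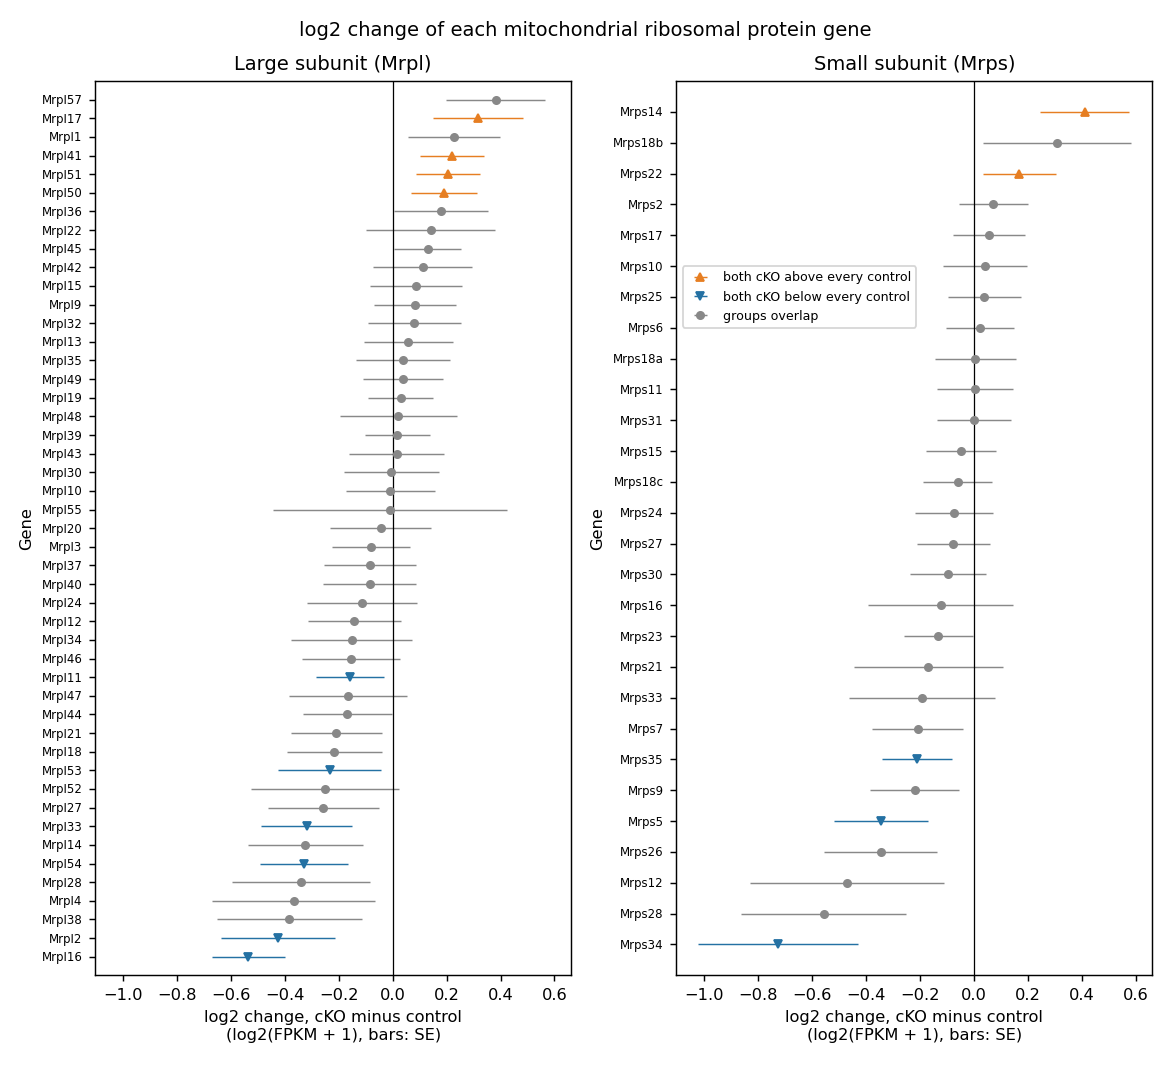
Difference of mean log2(FPKM + 1) between the cKO and the control libraries, with its standard error, for the 47 Mrpl and 28 Mrps genes that were tested, sorted within each panel. Most points lie near 0, and the 6 upward and 9 downward triangles mark genes whose 2 cKO libraries lay outside the range of the 3 controls.

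The medians of both subunits were close to each other. The median log2 change was -0.04 for the 47 Mrpl genes and -0.08 for the 28 Mrps genes, a difference of 0.03. Of the Mrpl genes 27 had a negative change and 20 a positive one, and of the Mrps genes 17 and 11. The quartiles ran from -0.21 to 0.08 for Mrpl and from -0.21 to 0.03 for Mrps. Among the Mrpl genes 6 lay below every control in both cKO libraries and 4 above, and among the Mrps genes 3 and 2. These are 12.8% and 8.51% of Mrpl and 10.7% and 7.14% of Mrps genes, all under the 15.6% below and 13.4% above of all tested loci. The Mrpl median was positive under equal summed FPKM (0.01) and under upper-quartile scaling (0.02), where the median of all tested loci was 0.03 in each. Without control replicate 2 the Mrpl median was 0.03, beside -0.02 for all tested loci. When control replicate 1 was left out the order of the medians turned round, with -0.18 for Mrpl and -0.14 for Mrps.

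Summed over genes, the Mrpl transcripts came to 1883 and 1832 FPKM in cKO replicates 1 and 2, against 1712, 2434 and 2040 FPKM in control replicates 1 to 3. The Mrps transcripts came to 898 and 856 FPKM in cKO replicates 1 and 2, against 839.9, 1103 and 969 FPKM in control replicates 1 to 3. Both cKO sums lay within the control range for each subunit. The ratio of large to small was 2.10 and 2.14 in cKO replicates 1 and 2, against 2.04, 2.21 and 2.11 in control replicates 1 to 3. It averaged 2.12 ± 0.0308 in the cKO (SD, n = 2) and 2.12 ± 0.0852 in the controls (SD, n = 3). As a share of all summed FPKM, the tested genes of both subunits took 0.627% and 0.643% in the cKO, against 0.605%, 0.730% and 0.682% in the controls.

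**Figure D2:**
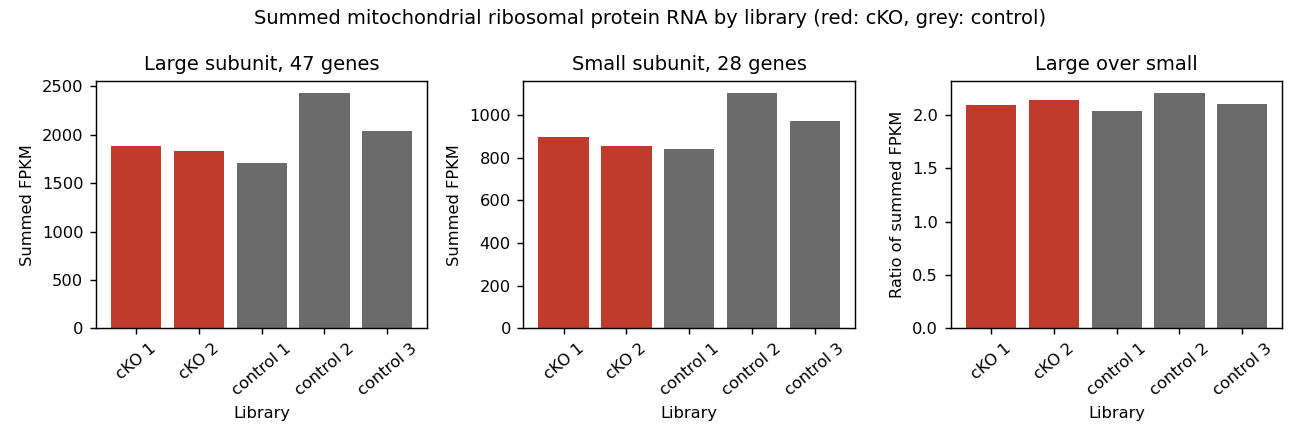
Summed FPKM of the tested Mrpl genes (left), of the tested Mrps genes (middle) and their ratio (right) in the 2 cKO libraries (red) and the 3 control libraries (grey). The cKO bars stand between those of control replicates 1 and 2 in every panel, and the ratio stays between 2.04 and 2.21.

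The controls differed among themselves more than the groups did. Expressed as the deviation of log2(FPKM + 1) from each gene's mean over the 5 libraries, the median over the 75 genes was -0.02 and -0.06 in cKO replicates 1 and 2, against -0.15, 0.18 and 0.05 in control replicates 1 to 3. Control replicate 1 was thus the low end and control replicate 2 the high end. Control replicate 2 was the highest of all 5 libraries for 45 of the 75 genes, where it was the highest for 34.8% of all tested loci. Control replicate 1 was the lowest for 35 of the 75, beside 19.0% of all tested loci. Control replicate 2 exceeded control replicate 1 for 64 of the 75, 38 of 47 Mrpl and 26 of 28 Mrps genes, beside 50.8% of all tested loci. Control replicate 1 is also the library whose label has a wild-type allele, and its genotype and the library itself cannot be told apart. It also stood apart in single loci outside the set. Tfap2b was at 82.3 FPKM in control replicate 1, against 0.0177 to 0.0397 FPKM in the other libraries. En1 was at 19.02 FPKM, against 0 to 0.0293 FPKM. Whether this library held other tissue, and whether that bears on the values here, was not tested.

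**Figure D3:**
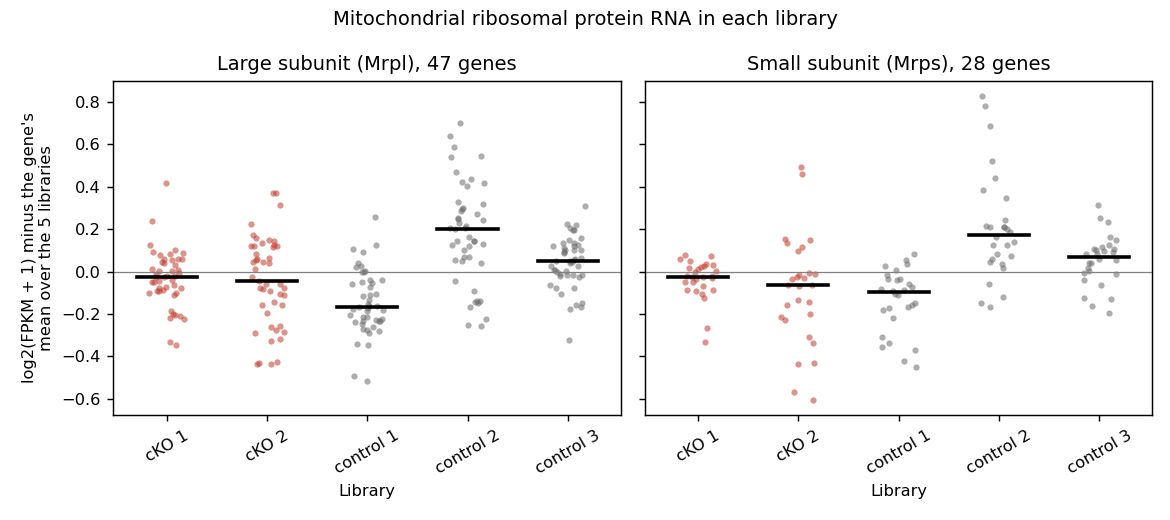
Each point is a gene, placed by its log2(FPKM + 1) minus its own mean over the 5 libraries, for 47 Mrpl genes (left) and 28 Mrps genes (right), with the cKO libraries in red, the controls in grey and black bars at the medians. The bars of control replicates 1 and 2 are the lowest and the highest in both panels, with the cKO bars between them.

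The number of genes with no overlap changed with the library left out. Without control replicate 1, both cKO libraries lay below every remaining control for 39 genes and above for 8, where all tested loci gave 28.8% and 27.8%, and the median log2 change was -0.14. Without control replicate 2, 11 genes lay below and 12 above, where all tested loci gave 19.7% and 18.2%, and the median was -0.00036. Without control replicate 3, 9 lay below and 8 above, with 19.4% and 15.1% of all tested loci. Without cKO replicate 1 the counts were 22 below and 17 above, with 34.7% and 27.2% of all tested loci. Without cKO replicate 2 they were 14 below and 8 above, with 22.0% and 21.4% of all tested loci.

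Among large subunit proteins with bacterial relatives, Mrpl16 lies at the functional core of the subunit. Its RNA (chromosome 19, 11770415 to 11774956 in GRCm38) was at 16.6 and 14.2 FPKM in cKO replicates 1 and 2, against 21.3, 22.6 and 24.4 FPKM in control replicates 1 to 3. Both cKO libraries lay below every control, and the controls were close to each other. The log2 change was -0.54 (SE 0.13), with an unadjusted p of 0.00879 and an adjusted p of 0.575 in limma, so Mrpl16 was not called. The exact two-sided permutation test over the 10 ways to split 5 libraries into 2 and 3 returned p = 0.1, which is its lowest possible result. For Mrpl16 the authors' deposited table gave a log2 fold change of -0.56 and a q-value of 0.262.

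Mrpl2, a core protein of the peptidyl transferase region, was at 34.5 and 33.1 FPKM in cKO replicates 1 and 2, against 35.7, 56.5 and 47.2 FPKM in control replicates 1 to 3. The groups did not overlap, but control replicate 1 lay close to the cKO libraries (log2 change -0.43, SE 0.21, and -0.28 without control replicate 2). Mrpl33, a small protein of bacterial descent, was at 85.8 and 85.002 FPKM in the cKO, against 90.2, 120.5 and 111.9 FPKM in the controls, the same order of libraries. Mrpl11, at the base of the stalk that contacts translation factors, was at 14.8 and 14.4 FPKM in the cKO, against 15.2, 17.6 and 16.4 FPKM in the controls. Mrpl12, the stalk protein, which in human cells also binds the mitochondrial RNA polymerase, was at 65.03 and 65.4 FPKM in the cKO, against 60.02, 82.02 and 76.03 FPKM in the controls, so its groups overlapped. Mrpl12 had a log2 change of -0.14 (SE 0.17), and leaving out control replicate 1 or 2 gave -0.27 or -0.05. 

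The 3 least abundant large subunit genes tested also have bacterial relatives. Mrpl17 was at 4.92 and 6.61 FPKM in cKO replicates 1 and 2, against 4.65, 4.24 and 4.30 FPKM in control replicates 1 to 3, with no overlap (log2 change 0.32, SE 0.17). Against the same controls, cKO replicate 2 alone gave 0.50 and cKO replicate 1 alone 0.14. Mrpl1, which forms the mobile stalk near the exit site, was at 5.32 and 7.10 FPKM in the cKO, against 5.62, 4.90 and 4.84 FPKM in the controls, and overlapped. Mrpl35 was at 4.98 and 5.28 FPKM in the cKO and 5.49, 4.06 and 5.46 FPKM in the controls. Of all 16 Mrpl genes with a mean under 20 FPKM, 12 had a positive log2 change and 4 a negative one.

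Mitochondria-specific proteins of the large subunit include the most abundant transcript of the set. Mrpl52 was at 264 and 221 FPKM in cKO replicates 1 and 2, against 222, 392 and 273 FPKM in control replicates 1 to 3, and control replicate 2 alone stood high. Mrpl34, of bacterial descent, followed at 126 and 115 FPKM in the cKO and 109, 172 and 128 FPKM in the controls. Mrpl54 was at 37.05 and 45.1 FPKM in the cKO, against 47.6, 58.8 and 48.9 FPKM in the controls, with no overlap (log2 change -0.33, SE 0.16, and -0.19 without cKO replicate 1). In the other direction, Mrpl41, a protein that in human cells has been studied as a partner of p53, was at 12.3 and 12.4 FPKM in the cKO, against 10.3, 10.1 and 11.1 FPKM in the controls. Its log2 change was 0.22 (SE 0.12, adjusted p = 0.575 in limma), and both cKO libraries lay above every control. Mrpl57 was at 10.8 and 13.4 FPKM in the cKO and 10.8, 8.50 and 7.89 FPKM in the controls, so cKO replicate 1 and control replicate 1 met. Mrpl44, which has a fold related to RNase III and is mutated in a human cardiomyopathy, was at 21.6 and 21.4 FPKM in the cKO and 20.7, 28.5 and 24.1 FPKM in the controls.

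In the small subunit, Mrps34 had the lowest log2 change of all 75 genes. It is a mitochondria-specific protein whose loss destabilises the small subunit in mice and which is mutated in human Leigh syndrome. Mrps34 (chromosome 17, 24895120 to 24896289) was at 31.5 and 24.7 FPKM in cKO replicates 1 and 2, against 37.1, 68.4 and 40.4 FPKM in control replicates 1 to 3. The groups did not overlap, while control replicate 2 stood far above the other two controls. The mean was 28.1 ± 4.84 FPKM in the cKO (SD, n = 2) and 48.6 ± 17.2 FPKM in the controls (SD, n = 3), or 57.8% of the control mean. The log2 change was -0.73 (SE 0.30) with an adjusted p of 0.575 in limma. Without control replicate 2 it was -0.46. In the authors' deposited table it was -0.79 with a q-value of 0.0765.

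Mrps28 was at 18.7 and 18.6 FPKM in cKO replicates 1 and 2, against 18.6, 38.9 and 29.8 FPKM in control replicates 1 to 3, so control replicate 1 was level with the cKO. Mrps12, a protein of the decoding centre, was at 50.5 and 33.8 FPKM in the cKO, against 40.6, 87.4 and 53.97 FPKM in the controls, and also overlapped. Mrps5, which lines the entry path of the messenger RNA, was at 18.3 and 12.97 FPKM in the cKO, against 18.7, 20.9 and 19.97 FPKM in the controls. Its groups did not overlap, although cKO replicate 1 was close to control replicate 1 (log2 change -0.34, SE 0.17). With cKO replicate 2 alone the change was -0.57, and with cKO replicate 1 alone it was -0.11. Mrps26 was at 34.6 and 24.97 FPKM in the cKO and 32.4, 44.8 and 36.7 FPKM in the controls.

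Mrps14, of bacterial descent, had the highest log2 change of all 75 genes and the steadiest controls. Mrps14 (chromosome 1, 160195215 to 160201186) was at 11.3 and 15.6 FPKM in cKO replicates 1 and 2, against 9.62, 9.85 and 9.73 FPKM in control replicates 1 to 3. Both cKO libraries lay above every control, and they differed more from each other than cKO replicate 1 did from the controls. The log2 change was 0.41 (SE 0.16), with an unadjusted p of 0.0501 and an adjusted p of 0.575 in limma. Leaving out cKO replicate 1 gave 0.62 and leaving out cKO replicate 2 gave 0.20. In the authors' deposited table it was 0.46 with a q-value of 0.332.

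**Figure D4:**
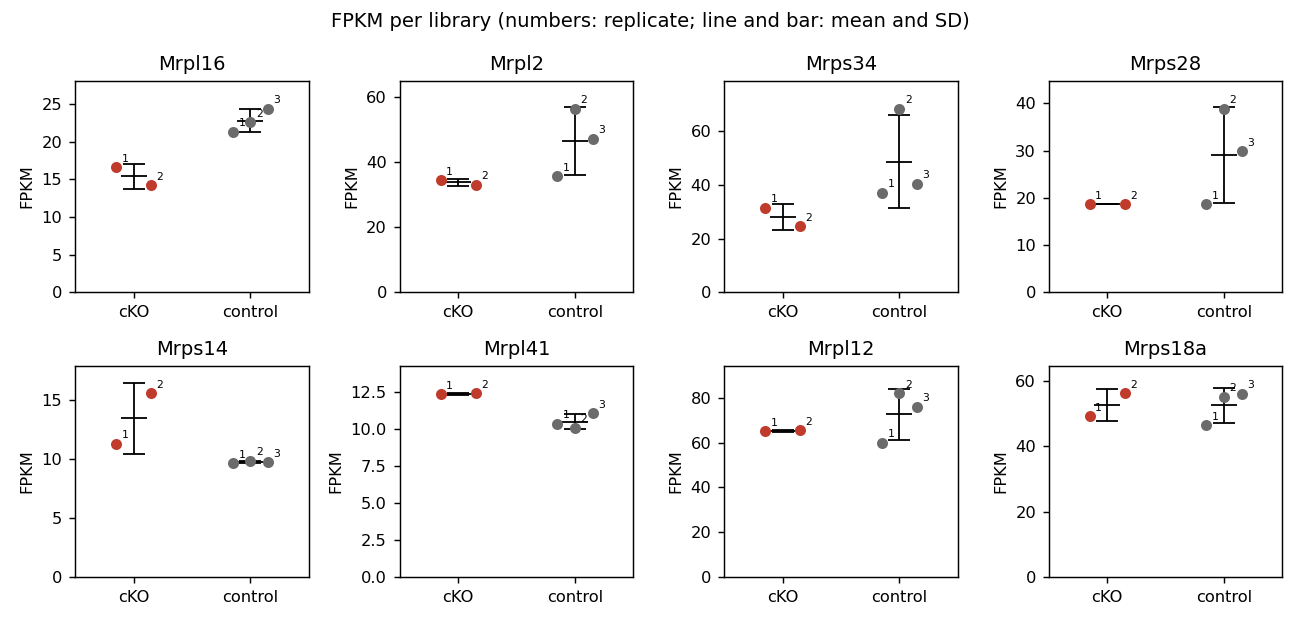
FPKM of 8 genes in each library, cKO left in red and control right in dark grey, with the replicate number at each point and the mean with its SD. Mrpl16, Mrpl2 and Mrps34 show lower cKO points, Mrps14 and Mrpl41 higher ones, and in Mrps28, Mrpl12 and Mrps18a the groups overlap.

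Some genes named for the small subunit have another place. Mrps30 and Mrps18a belong to the large subunit by structure, and Mrps36 is now known as a component of the oxoglutarate dehydrogenase complex. Mrps30 was at 25.6 and 26.8 FPKM in cKO replicates 1 and 2, against 26.2, 31.8 and 26.5 FPKM in control replicates 1 to 3. Mrps18a was at 49.2 and 56.2 FPKM in the cKO, against 46.5, 55.2 and 56.1 FPKM in the controls. With both counted in the large subunit and Mrps36 left out, the median log2 changes were still -0.04 for the large and -0.08 for the small subunit. The paralogue Mrps18b, a small subunit protein, was lower in level, at 7.91 and 12.7 FPKM in the cKO and 6.11, 10.2 and 7.92 FPKM in the controls. The paralogue Mrps18c was at 40.4 FPKM in each cKO library and 38.8, 45.4 and 42.6 FPKM in the controls. None of the 3 paralogues separated the groups. Mrps27, a protein with RNA-binding repeats, was at 16.4 and 16.05 FPKM in the cKO and 15.8, 19.2 and 16.7 FPKM in the controls.

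The median over genes of the mean FPKM was 29.6 for Mrpl and 29.7 for Mrps. The means ran from 4.94 (Mrpl17) to 274.7 (Mrpl52) FPKM for Mrpl and from 5.40 to 78.9 FPKM for Mrps, so the top of the range was higher for Mrpl. The least abundant Mrps genes tested were Mrps33 at a mean of 5.40, Mrps25 at 6.68 and Mrps18b at 8.97 FPKM. Of the 3 Mrps rows with the highest means, those of Mrps23 at 78.9 and Mrps6 at 61.5 FPKM join several symbols, and Mrps15 at 55.02 FPKM stands alone. Mrps25 was at 6.99 and 6.60 FPKM in the cKO and 6.82, 6.99 and 5.999 FPKM in the controls. Mrps33 was at 5.63 and 4.07 FPKM in the cKO and 3.86, 6.98 and 6.48 FPKM in the controls. Mrps15 was at 53.95 and 53.8 FPKM in the cKO and 51.1, 56.8 and 59.5 FPKM in the controls. None of these 3 separated the groups.

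The value of 3 rows cannot be given to a single gene, because the row joins several symbols. The row of Mrps23 also holds Cuedc1 and 2210416O15Rik and was at 77.4 and 71.6 FPKM in the cKO, against 76.8, 83.5 and 84.9 FPKM in the controls. The row of Mrps6 also holds Slc5a3, an inositol transporter gene, and was at 62.97 and 61.1 FPKM in the cKO, against 62.97, 56.5 and 63.96 FPKM in the controls. The row of Mrpl53 also holds Ccdc142 and was at 72.9 and 79.7 FPKM in the cKO, against 80.8, 111.4 and 80.3 FPKM in the controls, with no overlap but cKO replicate 2 close to control replicate 3. Without these 3 rows the median log2 change of the other 72 tested genes was -0.07.

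Mrpl23 and Mrps36 were too low to test. Mrpl23 was at 0.194 FPKM in cKO replicate 1 and listed at 0 in cKO replicate 2, and it was listed at 0 in control replicate 1 and at 0.401 and 0.391 FPKM in control replicates 2 and 3. Mrps36 was listed at 0 in every library but cKO replicate 2, where it was at 0.541 FPKM. RefSeq lists 6 pseudogenes with symbols built on these names, 3 of them of Mrps36 and 1 of Mrpl23. Whether reads shared with such copies lowered the values was not tested.

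Among the 75 genes the less abundant had mostly positive changes and the more abundant mostly negative ones. Of the 24 genes with a mean under 20 FPKM, 17 had a positive log2 change, and the median log2 change of the 24 was 0.04. Of the 51 genes at 20 FPKM or more, 37 had a negative log2 change, and the median of the 51 was -0.11. All tested loci had medians of 0.00017 under 20 FPKM and -0.06 at 20 FPKM or more. Across the 75 genes Pearson's r between mean log2(FPKM + 1) and log2 change was -0.41 and Spearman's rho -0.40, beside -0.04 and -0.06 across all 12672 tested loci. The genes share the same 5 libraries, and the level of 20 FPKM was chosen after the values were seen. Control replicate 2 exceeded control replicate 1 for 49 of the 51 higher genes and for 15 of the 24 lower ones. Over all tested loci it did so for 2836 of the 4630 higher and 3605 of the 8042 lower ones. Without control replicate 2 the higher genes had 28 negative and 23 positive changes, with a median of -0.03. Without control replicate 1 they had 44 negative and 7 positive changes, with a median of -0.25.

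**Figure D5:**
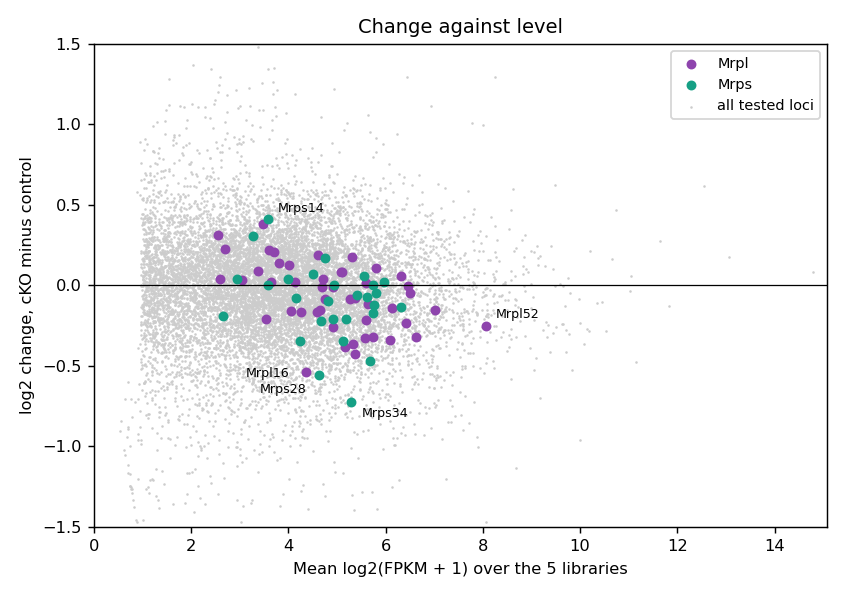
log2 change (cKO minus control) against the mean log2(FPKM + 1) over the 5 libraries for Mrpl genes (purple), Mrps genes (green) and all tested loci (light grey). The coloured points tend downwards from left to right, and 218 loci beyond 1.5 log2 units in size, none of them a mitochondrial ribosomal protein gene, are not drawn.

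Genes of either descent had similar medians. Their log2 changes centred on -0.07 for the 46 tested genes with a bacterial relative and on -0.08 for the 29 that are mitochondria-specific. Of the first kind 2 lay above and 5 below every control in both cKO libraries, and of the other kind 4 and 4. These are 4.35% above and 10.9% below for the first kind and 13.8% in each direction for the other, beside 13.4% above and 15.6% below for all tested loci.

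Proteins of the mitochondrial ribosome that carry other symbols were read beside them. Of 6 such genes 4 had a negative change and 2 a positive one, and none passed. Gadd45gip1, a large subunit protein also known as a nuclear cell cycle regulator, was at 19.9 and 12.9 FPKM in cKO replicates 1 and 2, against 23.2, 36.2 and 28.7 FPKM in control replicates 1 to 3. Both cKO libraries lay below every control (log2 change -0.81, SE 0.26, adjusted p = 0.575 in limma). In the authors' deposited table it was marked significant, with a log2 fold change of -0.84 and a q-value of 0.0499, the highest q-value they called. Dap3, a small subunit protein first described in cell death, was at 21.5 and 20.002 FPKM in the cKO and 18.8, 20.6 and 17.9 FPKM in the controls. Chchd1, also of the small subunit, was at 101 and 66.2 FPKM in the cKO and 80.9, 120.5 and 105 FPKM in the controls.

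Among 27 assembly factors of the mitochondrial ribosome, 10 had a positive and 17 a negative change, with a median of -0.15, and none passed in limma. Mettl15, which methylates the RNA of the mitochondrial small subunit, stood apart from the rest. It was at 4.81 and 6.28 FPKM in cKO replicates 1 and 2, against 1.93, 1.88 and 2.11 FPKM in control replicates 1 to 3, with both cKO libraries far above every control. Its mean was 5.54 ± 1.04 FPKM in the cKO (SD, n = 2) and 1.98 ± 0.121 FPKM in the controls (SD, n = 3). The log2 change was 1.13 (SE 0.18), with an unadjusted p of 0.000949 and an adjusted p of 0.573 in limma. In the authors' deposited table Mettl15 was marked significant, with a log2 fold change of 1.49 and a q-value of 0.0102. The other assembly factors with the smallest p were Spg7, a mitochondrial protease subunit, at 22.7 and 19.5 FPKM in the cKO and 24.6, 29.4 and 27.8 FPKM in the controls, and the GTPase Mtg2, at 14.1 and 11.8 FPKM in the cKO and 14.9, 17.1 and 15.1 FPKM in the controls.

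The 14 mitochondrial translation factors had 7 positive and 7 negative changes and a median of -9.3e-05. The 17 mitochondrial aminoacyl-tRNA synthetases had 8 positive and 9 negative changes and a median of -0.02. The 13 genes of mitochondrial DNA maintenance and transcription had 6 positive and 7 negative changes and a median of -0.16. Polg2, the accessory subunit of the mitochondrial DNA polymerase, was at 2.65 and 3.57 FPKM in the cKO, against 5.62, 4.81 and 4.09 FPKM in the controls, with no overlap. The 10 tested regulators of nuclear genes for mitochondria had 5 positive and 5 negative changes. Gabpb1, a subunit of the ETS factor GABP, was at 23.99 and 33.3 FPKM in the cKO, against 21.7, 19.4 and 20.9 FPKM in the controls, and Gabpa, its DNA-binding partner, at 13.9 and 15.5 FPKM in the cKO, against 12.9, 12.1 and 11.4 FPKM in the controls, both with no overlap. Pprc1, a coactivator of nuclear genes for mitochondria, was at 12.01 and 10.9 FPKM in the cKO, against 13.2, 17.3 and 13.9 FPKM in the controls, below every control. No gene of these lists passed over all loci.

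Genes of the cytosolic ribosome and of the respiratory chain were read with the same fit. For the 72 cytosolic ribosomal protein loci the log2 changes centred on -0.20, with 54 negative and 18 positive. For the 79 nuclear subunits of oxidative phosphorylation they centred on -0.03, with 44 negative and 35 positive. No member of either set passed over all loci. Control replicate 2 exceeded control replicate 1 for 64 of the 72 cytosolic ribosomal protein loci and for 67 of the 79 oxidative phosphorylation loci, the order also seen in the mitochondrial ribosomal protein genes. The difference between these sets was not tested.

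The promoters were searched for the motifs of 3 factors known to act on nuclear genes for mitochondria. RefSeq promoter windows of GRCm38.p6, from 250 bases before to 50 bases after the start, were found for 68 of the 77 genes. The motifs, read on both strands, were GCGC and TGCGC with any 1 base between them for NRF1, CCGGAAG for ETS factors such as GABP and AAGATGGC for YY1. The ETS and YY1 letters can share their AAG, and no match in these windows overlapped a match to another motif. The ETS letters were in 36.8% of the 68 genes' windows, beside 9.93% of all 27025 genes with a window and 19.99% of tested genes. The NRF1 letters were in 19.1%, beside 5.19% and 11.9%, and the YY1 letters in 17.6%, beside 3.19% and 5.42%. At least 1 of the 3 was in 42 of the 68, in 61.8% beside 16.4% of all genes and 32.7% of tested genes. By subunit, 14 of 42 Mrpl and 11 of 26 Mrps genes held the ETS letters, 10 and 3 the NRF1 letters, and 6 and 6 the YY1 letters. The median log2 change was -0.12 for the 25 tested genes with the ETS letters and -0.01 for the 41 without them. It was -0.01 with and -0.06 without the NRF1 letters, and 0.00 with and -0.07 without the YY1 letters.

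The 100 bases before the start are shown for 5 genes, because they place the genes with the smallest p of each subunit beside genes that hold a motif. They run 5′ to 3′ on the gene's own strand, the plus strand for all of them, with matches to a motif in capitals. The windows are chr19:11770315-11770414 for Mrpl16, chr1:160195115-160195214 for Mrps14, chr11:120484537-120484636 for Mrpl12, chr14:54426809-54426908 for Mrpl52 and chr13:99344686-99344785 for Mrps27. The start used for Mrps27 was 99344786, while the gene as a whole begins at 99344767, so the last bases shown for it lie inside the gene.
Mrpl16: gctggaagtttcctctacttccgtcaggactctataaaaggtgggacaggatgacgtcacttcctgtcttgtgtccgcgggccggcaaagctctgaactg
Mrps14: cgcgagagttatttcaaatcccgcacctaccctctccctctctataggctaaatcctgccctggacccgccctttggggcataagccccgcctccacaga
Mrpl12: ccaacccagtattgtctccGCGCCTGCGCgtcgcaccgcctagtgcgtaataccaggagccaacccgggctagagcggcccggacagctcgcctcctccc
Mrpl52: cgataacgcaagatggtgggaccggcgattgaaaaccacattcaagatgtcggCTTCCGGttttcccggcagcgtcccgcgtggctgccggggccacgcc
Mrps27: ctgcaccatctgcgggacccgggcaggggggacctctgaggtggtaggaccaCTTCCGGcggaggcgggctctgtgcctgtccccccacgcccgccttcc
Mrpl16 and Mrps14 held no exact match to the letters of the 3 motifs in the whole window, and near matches were not searched. Mrpl52 held the ETS letters and Mrps27 the YY1 letters once more past the start, outside the bases shown. The capitals are the NRF1 letters in Mrpl12 and the ETS letters, on the other strand, in Mrpl52 and Mrps27. Over the 74 promoters of the 68 genes with a window, the median GC content in the 250 bases before the start was 58.4%. For all 32851 promoters it was 52.4%, and a value for tested genes alone is not given.

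Many of the genes have a neighbour that starts nearby on the opposite strand. A gene on the opposite strand started within 1000 bases upstream for 26 of the 68 genes, or 38.2%, beside 12.3% of all genes with a window and 20.4% of tested genes. In 1 case a small and a large subunit gene face each other: Mrps11 and Mrpl46 start 42 bases apart on chromosome 7, and the 41 bases between them (chr7:78783090-78783130, plus strand, in the direction of Mrps11) are shown because both subunits meet there.
Mrps11-Mrpl46: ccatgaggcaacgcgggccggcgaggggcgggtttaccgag
Mrps11 was at 31.4 and 28.3 FPKM in cKO replicates 1 and 2, against 26.7, 32.5 and 30.1 FPKM in control replicates 1 to 3. Mrpl46 was at 23.4 and 21.7 FPKM in the cKO, against 20.4, 28.1 and 27.9 FPKM in the controls. Both overlapped between groups. Mrps12 starts 147 bases from Sars2, the mitochondrial seryl-tRNA synthetase gene, which was at 8.71 and 9.44 FPKM in the cKO, against 9.56, 18.8 and 14.8 FPKM in the controls. Of the 24 pairs in which both genes were tested in rows of their own, 12 had changes of the same sign, and no partner passed over all loci. Pearson's r between the log2 change of a gene and that of its partner was 0.44, from the same 5 libraries. The pair of Mrps11 and Mrpl46 is counted from each side.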

How the data were processed

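Expression was measured in 2 Chd8 cKO and 3 control libraries, grouped by their titles; 6 ATAC-seq samples were not analysed here. Per the labels' protocols, RNA was extracted with Trizol and an RNeasy column before library preparation with a kit from Illumina; a protocol note names Eed cKO, where titles and genotypes name Chd8. The submitters' processing notes name CASAVA, TopHat, Cufflinks, Bowtie2 and MACS and the build mm10, with no versions. For strand and annotation, nothing is given in the sources used here. The deposited table gave values taken as FPKM, from the named tools and the values, since the header names no unit. Per the file headers, the authors also deposited their own comparison: for each locus the p-value and q-value, the score of their test and the log2 fold change. Low FPKM values showed no common step between libraries (at most 25.5% of loci within 0.05 log2 units of the commonest ratio), so depth is unknown.

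A mean of 1 FPKM or more over the 5 libraries was required of a locus, and log2(FPKM + 1) was compared between groups with limma (version 3.58.1 in R 4.3.3), using empirical Bayes variances that follow expression level and Benjamini-Hochberg adjustment over all loci. Changes of low genes are understated on this scale. The procedure was run on simulated data, drawn without shifts shared between genes and with changes larger than those of the members. That run cannot tell how well changes as small as theirs are found. One cortical marker of the original list is not reported here and was left out of its sums and counts. The members, lists and tests were chosen with earlier results of these data known. Genes named in the text are the 3 most and 3 least abundant and the 5 with the smallest p of each subunit, those called, joined or untested, 11 chosen by role, and up to 3 per other list. Mrps11 and Mrpl46 were chosen for their shared start region after their values were seen. Coordinates and promoters are those of RefSeq on GRCm38.p6 (the mm10 assembly); all 77 genes had a symbol match there. Python 3.11.15 was used for summaries. Alternatives were other scalings, filters, a pseudocount of 0.1, no trend, a replicate block and leaving out each library.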

Additional observations from a re-analysis of the deposited data

How the results depend on the processing

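No mitochondrial ribosomal protein gene passed under any alternative, and their smallest adjusted p in limma ranged from 0.315 to 0.999. The median log2 changes of all members, Mrpl and Mrps moved by less than the spread between libraries. The Mrpl median minus the Mrps median was 0.03 in the reported fit and ranged from -0.039 to 0.040 when 1 library was left out, the lowest without control replicate 1.

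With the replicate number as a block, 3 loci passed over all loci, against 6 without it. The labels share numbers between groups without pairing libraries. Same-numbered libraries had correlations of -0.07 and -0.11 in their deviations, and the other pairs had correlations from -0.05 to 0.11. The deviations of the 2 cKO libraries mirror each other, so these correlations cannot decide whether libraries were paired. Control replicate 3 has no partner, so the block leaves it without influence on the changes.

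When 1 library was left out, between 9 and 37 loci passed over all loci, between 9 and 39 members lay below every control and between 8 and 17 above, where all tested loci gave 19.4% to 34.7% below and 15.1% to 27.8% above. With upper-quartile scaling 10 members lay above and 6 below every control, where all tested loci gave 16.7% and 12.5%. The balance of 6 above and 9 below thus turned, as did that of all tested loci, from 13.4% above and 15.6% below. With equal summed FPKM 9 members lay above and 8 below, but the shares over all tested loci were not counted for that scaling. Signs were followed only for members picked by abundance, smallest p, joined rows or role, not for every member. Among them, the sign of the log2 change turned for Mrps15 with equal summed FPKM (0.0097), an alternative chosen after seeing the data. For Mrps15 it also turned with the block (0.00062) and with upper-quartile scaling (0.014). It turned for Mrps18c with upper-quartile scaling (0.00014) and for Mrps25 with the block (-0.021). Leaving out 1 library gave log2 changes on both sides of 0 for 8 of the members followed. They ran from -0.30 to 0.027 for Mrpl34, -0.080 to 0.099 for Mrpl35, -0.11 to 0.00062 for Mrps15 and -0.089 to 0.0996 for Mrps18a. They ran from -0.0024 to 0.62 for Mrps18b, -0.021 to 0.075 for Mrps25, -0.41 to 0.0014 for Mrps33 and -0.032 to 0.056 for Mrps6. The cause was not tested. Where a cKO library was left out, the lone one was assumed to vary like the controls. With 5 libraries and unknown depth, small changes could not be told from the spread.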
